A study of Homo sapiens with 80 samples.

Results

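FOS, FOSB, FOSL1, FOSL2, JUN, JUNB, JUND, ATF3, EGR1 and ARC are the AP-1 subunits and the immediate early factors described here, in human U2OS osteosarcoma cells given a glucocorticoid. Their probes were taken by gene symbol and kept when detected (p under 0.05) on at least 4 of 80 arrays, and no response to hormone entered that filter. The genes themselves were chosen with earlier results of these data known. Of the 10 genes listed, 9 had a probe that was kept, 1 probe each, among 15392 kept probes of 12547 genes in all. JUND was not analysed here. ATF3 had a second probe, which was detected on 0 arrays and was left out. FOSL2 was detected on 78 arrays, FOSB on 79 and each of the other genes on 80. The sources used here do not say which stretch of a transcript a probe reads.

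The study put 5 alleles of the glucocorticoid receptor (GR) into U2OS cells, which hold little receptor of their own, and asked how the alleles differ in the genes they regulate. GRalpha is the common form of the receptor, and GRgamma is a splice form with 1 added arginine in the DNA-binding domain. A477T changes the dimer interface of that domain, 30iiB alters AF1, the activation function of the N-terminus, and E773R alters AF2, the activation function that depends on ligand. Each allele was measured after dexamethasone, a synthetic glucocorticoid, at 100 nM for 2, 4 or 24 h, and after ethanol for 4 h, which makes the 0 h group. Each of the 20 groups held 4 arrays, 80 in all, and cells of every group grew in medium with 5% fetal bovine serum. Only the 4 h group was matched in time to its ethanol control, so a change at 24 h cannot be told apart from the effect of a longer culture. The sources used here give neither the promoter that drove the receptors nor whether a line was 1 clone.

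AP-1 is a dimer of basic leucine zipper proteins, a Fos family member with a Jun family member or a Jun dimer, that binds DNA and carries growth factor, cytokine and stress signals to genes. Most of its subunit genes are immediate early genes: MAP kinases acting on factors already present switch them on within minutes, without new protein, and their short-lived mRNAs fall again. The glucocorticoid receptor is known for restraining genes driven by AP-1, partly through contact with AP-1 itself, which is one route of its anti-inflammatory action.

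RefSeq promoters (build GRCh38.p14) were given for 7 of the 9 measured genes, ATF3 with 2 of them, so that 8 windows of 300 bases were searched on both strands (250 bases before the start and 50 after). The replicate arrays of FOS, EGR1, FOSB, JUNB and ATF3 moved together. The 2 windows of ATF3 are not shown, and of the motifs below only TATAAA was found in them. For the others, FOS, EGR1, FOSB and JUNB, the 150 bases before the start are shown. All 4 lie on the plus strand, and capitals mark the motifs found: the cAMP response element core TGACGT, the CArG box (the binding site of serum response factor), TATAAA and the receptor motif AGAACA, one arm of the palindrome that steroid receptors bind.
FOS, chr14:75278678-75278827: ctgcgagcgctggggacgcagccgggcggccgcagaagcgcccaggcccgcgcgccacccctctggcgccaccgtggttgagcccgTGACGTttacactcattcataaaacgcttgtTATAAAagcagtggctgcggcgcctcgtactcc
EGR1, chr5:138465329-138465478: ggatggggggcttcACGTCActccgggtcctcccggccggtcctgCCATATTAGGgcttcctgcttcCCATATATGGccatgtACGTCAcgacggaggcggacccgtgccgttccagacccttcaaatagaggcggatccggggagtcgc
FOSB, chr19:45467846-45467995: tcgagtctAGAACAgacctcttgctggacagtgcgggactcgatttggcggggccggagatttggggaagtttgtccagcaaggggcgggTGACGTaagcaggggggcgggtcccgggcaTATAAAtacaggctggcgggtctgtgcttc
JUNB, chr19:12791336-12791485: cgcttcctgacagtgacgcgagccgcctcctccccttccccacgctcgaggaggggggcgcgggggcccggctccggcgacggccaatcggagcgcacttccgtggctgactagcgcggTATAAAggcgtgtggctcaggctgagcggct
TGACGT lay in the windows of 4 of the 7 genes, FOS (64 bases before the start), FOSB (60), FOSL2 (66) and EGR1 (136 and 67), and in 7.98% of 35116 promoters of that length. The CArG box lay in the EGR1 window at 2 places, the nearer 83 bases before the start, and in 1.29% of all promoters. TATAAA was found in 4 of the 7, namely FOS, FOSB, JUNB and 1 of the ATF3 windows (11.5% of all). The AP-1 site TGANTCA was found in the FOSL2 window, from base 5 of the transcript (7.71% of all). AGAACA lay in the FOSB window, 142 bases before the start (14.8% of all). None of these motifs overlapped another in the windows searched. A match is a match of letters in this window and was not tied to binding.

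Values are log2 signals after background correction and quantile normalisation, and differences between groups are log2 differences with the SE of 1 limma model (n = 4 arrays a group). Adjusted p-values are two-sided, from that model, with Benjamini-Hochberg adjustment over 15392 probes in each comparison, and a gene was called at an adjusted p under 0.05. The 2, 4 and 24 h comparisons of an allele share its 0 h arrays, so their values stand side by side and do not support each other. The series description states biological replicates, and p-values measure only how these samples spread, while 4 arrays a group limit the precision. In RNA from whole cultures, fewer cells with a transcript and less of it per cell cannot be told apart.

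Across the arrays the median signal before normalisation ran from 82 to 925.75, and 12233 to 17333 probes were detected. The arrays lay on 10 slides of 8, at most 1 array of a group on each. Of 8 osteoblast and mesenchymal markers with a probe, 6 were detected on at least 40 arrays, among them RUNX2, ALPL, COL1A1 and VIM on 80, while SP7 was detected on 1 and COL1A2 on 16. No marker of blood (0 of 3) or liver (0 of 3) reached 40 arrays, but 4 of 6 epithelial markers (KRT8, KRT18, EPCAM and CDH1) and 3 of 4 endothelial markers (PECAM1, VWF and KDR, with CDH5 detected on 0) did.

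ARC was called higher at 2 and 4 h, and every call at 24 h was a fall. At 2 h the calls were 5 of 45 gene and allele pairs, all higher and all ARC, beside 1.42% of the pairs over all probes. At 4 h they were 11 of 45 (3.24% over all probes), with ARC higher in 5 alleles, JUNB lower in 4, and FOSL1 and JUN lower in 30iiB. At 24 h they were 21 of 45, all lower (12.3% over all probes). By allele at 24 h, 6 of 9 genes fell in GRalpha (8.48% of all probes fell), 6 in A477T (4.24%), 5 in GRgamma (7.02%), 4 in 30iiB (7.67%) and 0 in E773R (2.32%). The median difference of the 9 genes at 24 h ran from -1.49 in GRalpha to -0.68 in E773R, while the median over all probes lay between -0.03 and 0.01. For the count of 0 in E773R, 4 genes had an unadjusted p under 0.05 in limma. With slide as a fixed block the counts were 5 at 2 h, 13 at 4 h and 26 at 24 h. Other settings called 2 h rises of FOS in GRalpha and GRgamma and of ATF3 in GRgamma and E773R (both the replicate block and the series matrix values, whose normalisation is unknown). Changes called at 2 h by other settings also included a rise of FOSB in E773R (slide as a random block, and the series matrix values). They included falls in 30iiB as well, of JUNB (arrays scaled to 1 median, and the series matrix values) and of FOSL1 (the series matrix values).

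**Figure D1:**
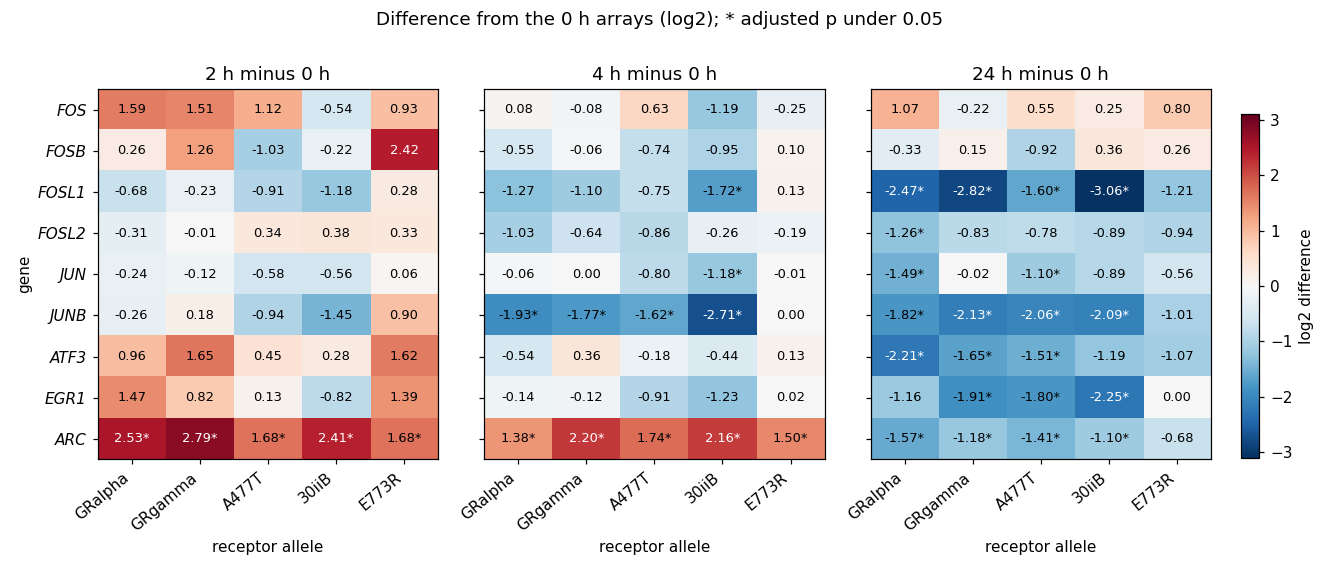
Log2 difference from the 0 h arrays for 9 genes (vertical) in 5 receptor alleles (horizontal), 1 panel a time, with 4 arrays a group; red is higher, blue is lower and a star marks an adjusted p under 0.05. ARC is starred as higher in every allele at 2 and 4 h, and the stars at 24 h are all on falls, none of them in E773R.

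ARC, which encodes a cytoskeleton-associated protein of neurons and is a classic activity-induced immediate early gene, was the single gene of the set whose 2 h difference was called. In GRalpha the ARC arrays, in replicate order, read 10.39, 10.60, 10.36 and 9.11 at 0 h, 12.39, 11.93, 12.90 and 13.37 at 2 h, 11.92, 11.39, 11.36 and 11.30 at 4 h and 8.93, 8.54, 8.47 and 8.25 at 24 h. Those of GRgamma were 11.15, 9.9, 9.96 and 9.96 at 0 h, 12.52, 13.71, 12.91 and 12.99 at 2 h, 12.36, 12.30, 13.21 and 11.91 at 4 h and 9.13, 9.31, 8.97 and 8.84 at 24 h. In both alleles every 2 h and every 4 h array lay above all 0 h arrays and every 24 h array below them. The A477T cells gave 9.91, 9.64, 9.64 and 9.77 at 0 h, 12.14, 10.62, 11.55 and 11.37 at 2 h, 12.02, 11.91, 11.001 and 10.98 at 4 h and 7.95, 8.64, 8.85 and 7.91 at 24 h. With 30iiB the values were 9.47, 8.85, 9.16 and 9.34 at 0 h, 11.45, 11.54, 12.65 and 10.80 at 2 h, 11.90, 11.10, 10.94 and 11.50 at 4 h and 8.15, 8.06, 7.88 and 8.31 at 24 h. E773R showed 10.36, 9.72, 9.5 and 9.5 at 0 h, 10.93, 11.36, 11.98 and 11.52 at 2 h, 11.42, 12.34, 10.89 and 10.42 at 4 h and 9.41, 9.2, 9.13 and 8.64 at 24 h. The 4 groups of each of these alleles did not overlap either, apart from the 2 h and 4 h groups, which overlapped.

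The rise of ARC at 2 h was 5.78-fold in GRalpha (log2 2.53, SE 0.35, adjusted p = 1.9e-07; 1.18% of all probes rose). It was 6.92-fold in GRgamma (adjusted p = 1.5e-08), 5.3-fold in 30iiB (8.9e-07), 3.2-fold in A477T (0.0011) and 3.2-fold in E773R (0.0044). Over all probes 1.20% rose at 2 h with GRgamma, 1.09% with 30iiB, 0.819% with A477T and 0.292% with E773R. At 4 h, against the time-matched control, ARC stayed above 0 h by 2.2 in GRgamma, 2.16 in 30iiB, 1.74 in A477T, 1.5 in E773R and 1.38 in GRalpha (log2, all called). By 24 h it had fallen below 0 h in GRalpha (-1.57), A477T (-1.41), GRgamma (-1.18) and 30iiB (-1.1). In E773R the 24 h difference of -0.68 was not called (adjusted p = 0.39), although the arrays did not overlap. From 4 to 24 h ARC fell by 2.18 in E773R, and the other 4 alleles had differences from -3.38 to -2.95, all called.

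Single arrays and settings decided some ARC calls. In fits on the groups compared alone, neither the 2 h (adjusted p = 0.069) nor the 4 h rise (0.49) was called in E773R, and without background correction the 24 h fall in 30iiB was not (-0.83, adjusted p = 0.069). Without GRalpha 0 h replicate 4, the lowest 0 h array, the GRalpha rise at 4 h was 1.04 (adjusted p = 0.12). The 24 h fall was not called in GRgamma without 0 h replicate 1 (-0.88, adjusted p = 0.098), nor in 30iiB without 0 h replicate 1 (-1.01) or 24 h replicate 3 (-1.03). In E773R the rise lost its call at 2 h without 2 h replicate 3 (1.5, adjusted p = 0.057), and at 4 h without 0 h replicate 3 (1.41) or 4 h replicate 2 (1.14, adjusted p = 0.23).

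**Figure D2:**
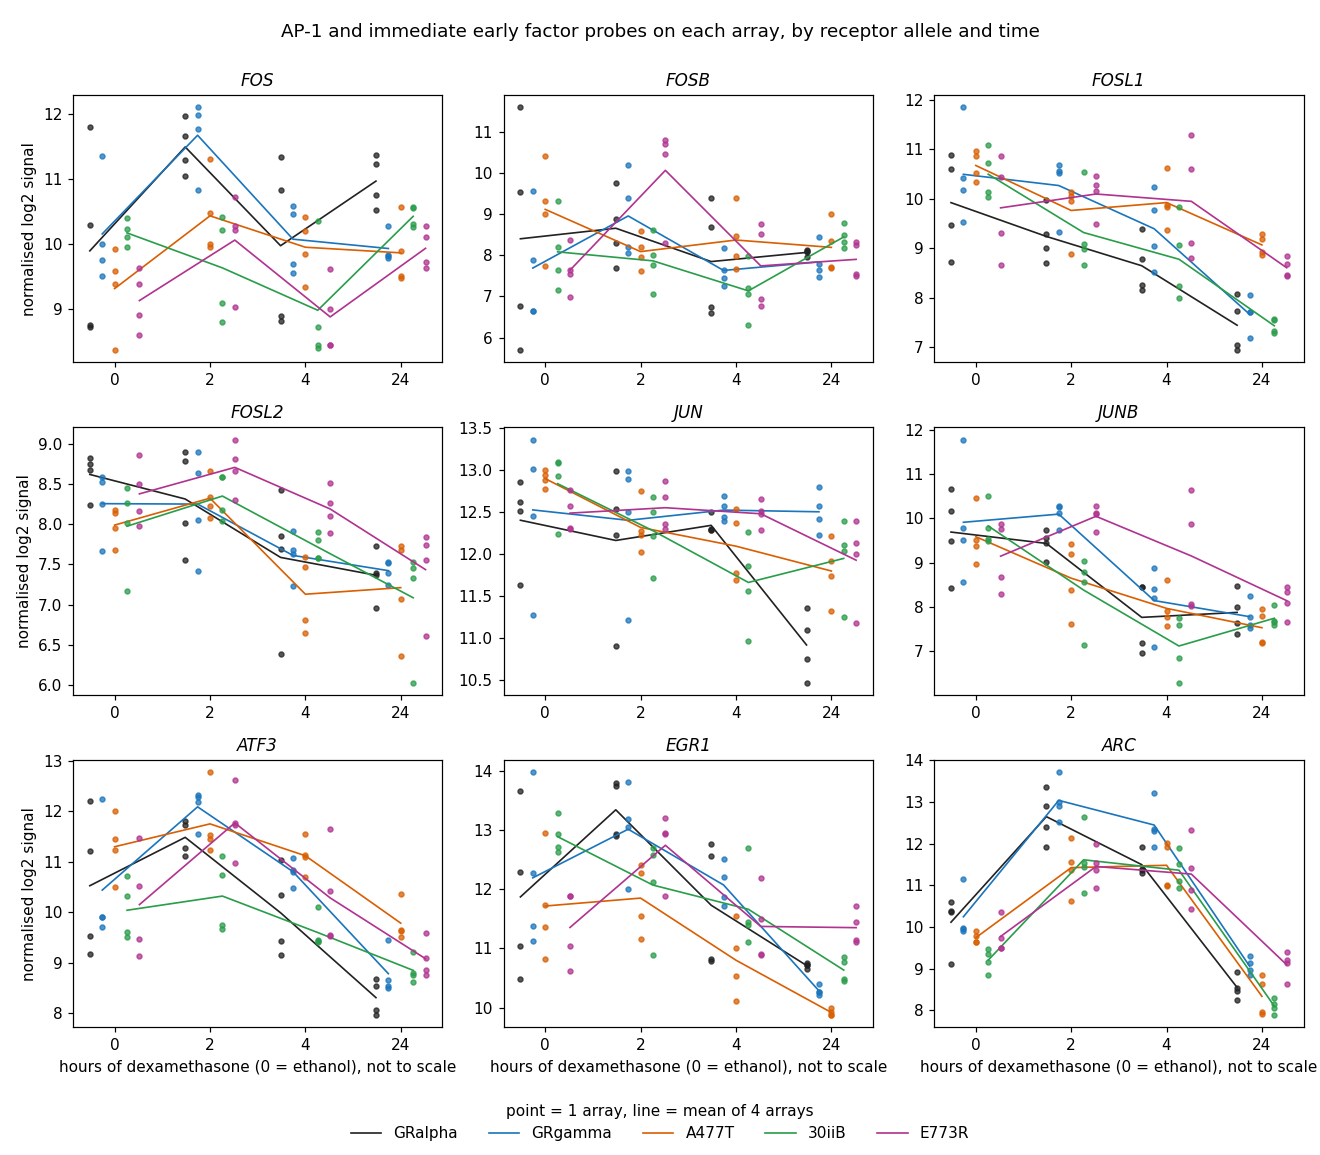
Normalised log2 signal (vertical) on each of 80 arrays for 9 genes, against hours of dexamethasone (0 is ethanol), with a colour for each receptor allele; points are arrays and lines join group means of 4. ARC peaks at 2 or 4 h in all alleles, FOSL1 and JUNB sit lowest at 4 or 24 h, and the points of FOS, FOSB, ATF3 and EGR1 are spread widely at 0 h and narrowly at 24 h.

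JUNB, a Jun family subunit that tempers c-Jun in many settings, fell against the time-matched control in 4 alleles. GRalpha cells had JUNB values of 10.17, 10.67, 9.49 and 8.42 at 0 h, 9.44, 9.01, 9.55 and 9.73 at 2 h, 8.45, 8.45, 7.19 and 6.96 at 4 h and 7.997, 8.48, 7.39 and 7.63 at 24 h. GRgamma cells had 11.78, 9.78, 8.56 and 9.52 at 0 h, 9.73, 10.12, 10.28 and 10.25 at 2 h, 8.4, 8.21, 8.87 and 7.09 at 4 h and 7.76, 8.24, 7.52 and 7.59 at 24 h. In both, 4 h arrays reached into the range of 0 h arrays, and in GRalpha 24 h arrays did as well. A477T cells had 9.52, 8.97, 10.47 and 9.39 at 0 h, 9.41, 7.62, 8.37 and 9.19 at 2 h, 8.61, 7.77, 7.56 and 7.92 at 4 h and 7.18, 7.8, 7.2 and 7.94 at 24 h. 30iiB cells had 9.52, 9.79, 9.48 and 10.52 at 0 h, 8.79, 7.13, 9.04 and 8.56 at 2 h, 7.74, 6.28, 6.85 and 7.58 at 4 h and 7.69, 7.66, 8.03 and 7.59 at 24 h. In these 2 alleles all 4 h and all 24 h arrays lay below all 0 h arrays. E773R cells had 9.86, 9.76, 8.29 and 8.67 at 0 h, 10.09, 9.69, 10.13 and 10.27 at 2 h, 9.88, 10.64, 8.03 and 8.06 at 4 h and 7.66, 8.09, 8.46 and 8.34 at 24 h, so that replicates 1 and 2 at 4 h stood above every 0 h array, replicates 3 and 4 lay below all of them, and the 24 h range reached into that of 0 h.

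At 4 h JUNB fell by 1.93 in GRalpha (SE 0.48, adjusted p = 0.0058; 1.76% of all probes fell), also in GRgamma (-1.77, adjusted p = 0.017; 1.20%), also in A477T (-1.62, adjusted p = 0.045; 1.31%) and also in 30iiB (-2.71, adjusted p = 3.4e-05; 1.75%). In E773R the difference was 0.00 (95% interval -0.96 to 0.97; 0.331% of all probes fell). The E773R response at 4 h minus that of GRalpha was 1.93 (SE 0.68), which limma did not call (adjusted p = 0.45). At 24 h JUNB fell in 4 alleles, with differences of -2.13 in GRgamma, -2.09 in 30iiB, -2.06 in A477T and -1.82 in GRalpha, and the E773R difference of -1.01 was not called (adjusted p = 0.34). Between 4 and 24 h limma called JUNB in none of the alleles (unadjusted p under 0.05 in 1), with differences from -1.01 to 0.63.

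The 4 h fall lost its call in GRalpha without 0 h replicate 2 (-1.6, adjusted p = 0.066) or 4 h replicate 4 (-1.66, adjusted p = 0.056), and in GRgamma without 0 h replicate 1 (-1.15, adjusted p = 0.27) or 4 h replicate 4 (-1.42). In A477T it was lost without any 1 of 6 arrays (0 h replicates 1, 3 and 4, and 4 h replicates 2, 3 and 4), with differences between -1.69 and -1.33. A fixed slide block likewise ended the A477T call (-1.5, adjusted p = 0.054). Fits on the groups compared alone ended the calls in GRalpha (adjusted p = 0.066) and GRgamma (0.29). The 30iiB fall kept its call without any 1 of its 8 arrays.

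**Figure D3:**
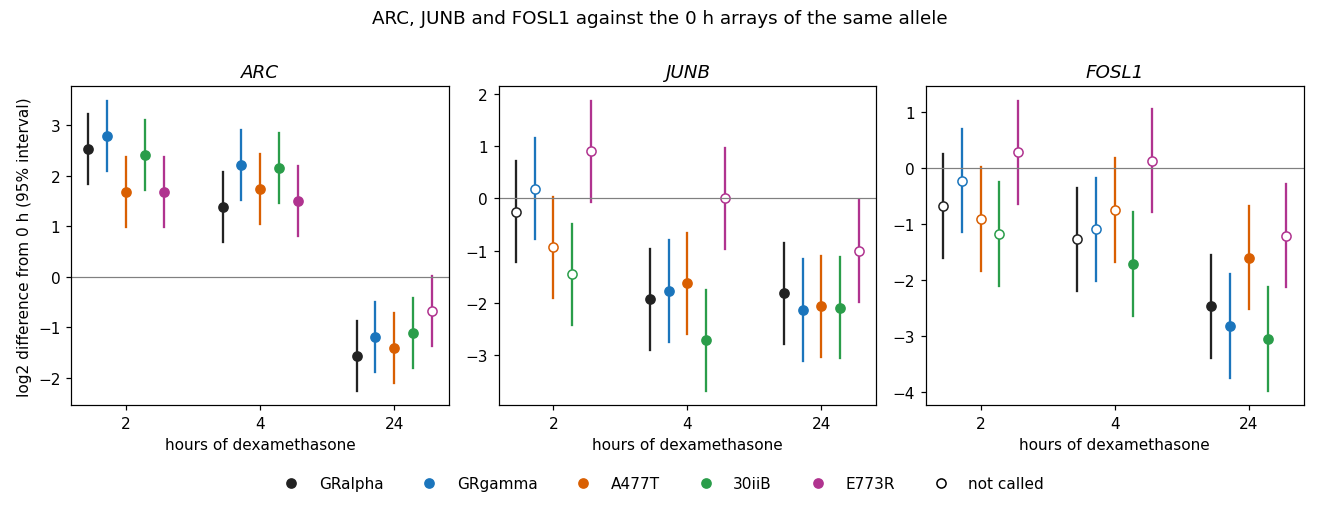
Log2 difference from the 0 h arrays of the same allele (vertical, with 95% interval) for ARC, JUNB and FOSL1 at 2, 4 and 24 h of dexamethasone (horizontal), 4 arrays a group; filled points passed an adjusted p under 0.05. ARC lies above 0 at 2 and 4 h in each allele, JUNB at 4 h lies at 0.00 in E773R and at -1.62 or lower in the others, and FOSL1 is lowest at 24 h.

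FOSL1 encodes FRA1, a Fos family subunit linked to cell migration and invasion, and at 24 h it had the largest fall of the set in GRalpha, GRgamma and 30iiB, while in A477T the falls of JUNB and EGR1 were larger. In GRalpha its arrays read 10.88, 10.60, 9.48 and 8.72 at 0 h, 9.01, 8.7, 9.96 and 9.28 at 2 h, 9.39, 8.77, 8.26 and 8.16 at 4 h and 7.73, 8.07, 6.94 and 7.04 at 24 h. GRgamma arrays read 11.85, 10.41, 9.52 and 10.18 at 0 h, 9.32, 10.68, 10.51 and 10.55 at 2 h, 9.78, 9.04, 10.24 and 8.51 at 4 h and 7.71, 8.05, 7.71 and 7.2 at 24 h. The 24 h arrays lay below all 0 h arrays in both alleles, and the 2 and 4 h arrays overlapped those of 0 h. For A477T the values were 10.86, 10.33, 10.96 and 10.52 at 0 h, 10.05, 8.89, 9.96 and 10.14 at 2 h, 10.62, 9.87, 9.37 and 9.82 at 4 h and 9.19, 9.29, 8.87 and 8.92 at 24 h. For 30iiB they were 10.73, 10.14, 10.03 and 11.07 at 0 h, 9.09, 8.98, 10.54 and 8.65 at 2 h, 9.84, 7.98, 8.23 and 9.06 at 4 h and 7.32, 7.28, 7.58 and 7.55 at 24 h. Here too no 24 h array reached the 0 h range, and in 30iiB no 4 h array did. For E773R they were 10.87, 10.44, 8.65 and 9.3 at 0 h, 10.28, 9.48, 10.46 and 10.15 at 2 h, 10.60, 11.28, 9.1 and 8.8 at 4 h and 8.46, 8.84, 8.68 and 8.43 at 24 h, and 0 h replicate 3 lay within the 24 h range.

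FOSL1 fell at 24 h in 30iiB (log2 -3.06, 8.34-fold, adjusted p = 2.7e-07), GRgamma (-2.82, 7.08-fold, 2.2e-06), GRalpha (-2.47, 5.56-fold, 2.6e-05) and A477T (-1.6, 3.04-fold, 0.015), each with SE 0.46. The A477T call was lost without 0 h replicate 3 (-1.51, adjusted p = 0.052). In E773R the difference was -1.21 (adjusted p = 0.15), which passed without 0 h replicate 3 (-1.6, adjusted p = 0.043). At 4 h FOSL1 fell by 1.72 in 30iiB (adjusted p = 0.015), a call lost without 0 h replicate 4 (-1.52), 4 h replicate 2 (-1.45) or 4 h replicate 3 (-1.53). Elsewhere the 4 h differences ran from -1.27 in GRalpha, over -1.1 in GRgamma and -0.75 in A477T, to 0.13 in E773R, not called.

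FOSL2, which encodes FRA2, read 8.75, 8.67, 8.83 and 8.24 at 0 h, 8.43, 6.38, 7.85 and 7.69 at 4 h and 7.73, 6.96, 7.37 and 7.4 at 24 h in GRalpha, and the 24 h arrays lay below all 0 h arrays, while 4 h replicate 1 lay within the 0 h range. At 24 h FOSL2 fell by 1.26 there (SE 0.33, adjusted p = 0.0031). Its 24 h differences in the other 4 alleles lay between -0.94 and -0.78 and were not called, with adjusted p from 0.053 to 0.16. With slide as a fixed block all 4 were called, with FOSL2 differences from -0.96 in GRgamma to -0.72 in E773R (adjusted p up to 0.0077). Against the time-matched control, its 4 h differences were -1.03 in GRalpha (adjusted p = 0.054), -0.86 in A477T (0.21), -0.64 in GRgamma (0.43), -0.26 in 30iiB (0.93) and -0.19 in E773R (0.85), not called. With slide as a fixed block the 4 h falls were called in A477T (-1.15, adjusted p = 1.5e-05), GRalpha (-0.97, 0.00032), 30iiB (-0.65, 0.035) and GRgamma (-0.64, 0.031). The GRalpha fall at 4 h was called in 9 of 19 alternatives. FOSL2 was not detected on 1 array of A477T and 1 of 30iiB at 24 h.

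JUN encodes c-Jun, the subunit that pairs with every Fos family member and can induce its own gene. In GRalpha the JUN arrays read 12.85, 12.61, 12.51 and 11.62 at 0 h, 12.22, 12.98, 12.53 and 10.90 at 2 h, 12.30, 12.50, 12.28 and 12.28 at 4 h and 10.46, 11.09, 11.35 and 10.74 at 24 h, and those of 24 h lay below all others but 1, the 2 h replicate 4 at 10.90. At 24 h JUN fell by 1.49 in GRalpha (SE 0.33, adjusted p = 0.00049) and also in A477T (-1.1, 0.023). In GRgamma it read 13.36, 13.01, 12.45 and 11.27 at 0 h and 12.22, 12.80, 12.57 and 12.41 at 24 h, overlapping, and the difference was -0.02. The 24 h response of JUN in GRgamma minus that of GRalpha was 1.46 (95% interval 0.52 to 2.41), with adjusted p = 0.12. That difference passed without GRalpha 0 h replicate 4 (1.72, adjusted p = 0.042) and without GRgamma 0 h replicate 1 (1.74, adjusted p = 0.037). The 24 h differences in 30iiB (-0.89) and E773R (-0.56) were not called. At 4 h JUN fell by 1.18 in 30iiB (adjusted p = 0.024), with overlap between the groups.

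The calls of JUN other than in GRalpha were lost when any 1 of several arrays was left out, though the differences kept their direction. The 4 h fall in 30iiB was lost without any 1 of 5 arrays (0 h replicates 2, 3 and 4, and 4 h replicates 1 and 2), with differences from -1.15 to -0.94, and the 24 h fall in A477T without any 1 of 4 arrays (0 h and 24 h replicates 1, 0 h replicate 2 and 24 h replicate 4), with differences from -1.09 to -0.94. A fixed slide block likewise ended the 30iiB call at 4 h (-0.99, adjusted p = 0.076), as did fits on the groups compared alone (adjusted p = 0.085). The same block gave a call in 30iiB at 24 h (-1.05, adjusted p = 0.012). After scaling arrays to 1 median, the falls in 30iiB at 4 h (adjusted p = 0.058) and A477T at 24 h (0.19) were not called.

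ATF3, a stress-induced factor of the ATF family that can pair with Jun proteins and often represses, had its lowest values at 24 h. GRalpha gave 11.21, 12.20, 9.53 and 9.17 at 0 h, 11.81, 11.12, 11.28 and 11.73 at 2 h, 11.03, 10.35, 9.44 and 9.15 at 4 h and 8.67, 8.55, 8.07 and 7.96 at 24 h. GRgamma gave 12.25, 9.9, 9.71 and 9.9 at 0 h, 12.33, 11.55, 12.29 and 12.19 at 2 h, 11.08, 10.84, 10.81 and 10.49 at 4 h and 9.45, 8.5, 8.53 and 8.66 at 24 h. In each of these alleles all 24 h arrays lay below all 0 h and all 4 h arrays, and at 0 h 1 or 2 replicates stood far above the rest. At 24 h ATF3 fell by 2.21 in GRalpha (SE 0.48, adjusted p = 0.00029), in GRgamma (-1.65, 0.0096) and in A477T (-1.51, 0.032). In 30iiB (-1.19) and E773R (-1.07) it was not called. The GRgamma call was lost without 0 h replicate 1 (-1.05, adjusted p = 0.15), and that of A477T without any 1 of 6 arrays (0 h replicates 1, 3 and 4, and 24 h replicates 1, 2 and 3), with differences from -1.53 to -1.28. After scaling arrays to 1 median both calls were lost (adjusted p = 0.079 in GRgamma and 0.063 in A477T). At 2 h the ATF3 difference was 1.65 in GRgamma (adjusted p = 0.063), which passed without 0 h replicate 1 (2.25, adjusted p = 0.0027).

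EGR1, a zinc finger immediate early factor induced through serum response factor, fell at 24 h in 3 alleles. Its arrays in GRgamma read 13.98, 12.27, 11.39 and 11.13 at 0 h, 13.18, 12.001, 13.81 and 13.05 at 2 h, 12.21, 12.50, 11.86 and 11.71 at 4 h and 10.26, 10.22, 10.40 and 10.26 at 24 h. In A477T they read 11.36, 10.82, 12.95 and 11.73 at 0 h, 12.27, 11.16, 11.55 and 12.41 at 2 h, 11.55, 10.12, 10.53 and 11.01 at 4 h and 9.999, 9.87, 9.92 and 9.88 at 24 h. In 30iiB they read 12.63, 13.28, 12.70 and 12.93 at 0 h, 12.70, 12.12, 10.89 and 12.57 at 2 h, 12.70, 11.10, 11.40 and 11.44 at 4 h and 10.85, 10.48, 10.76 and 10.45 at 24 h. No 24 h array of these alleles reached the 0 h range, and the SD of the 24 h replicates was 0.08 in GRgamma and 0.06 in A477T. EGR1 fell by 1.91 in GRgamma (SE 0.48, adjusted p = 0.0024), in A477T (-1.8, 0.0073) and in 30iiB (-2.25, 0.00024). Without GRgamma 0 h replicate 1 the first was -1.31 (adjusted p = 0.058), and without A477T 0 h replicate 3 the second was -1.39 (0.09).

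In GRalpha EGR1 read 12.29, 13.66, 11.05 and 10.48 at 0 h, 13.73, 12.94, 12.89 and 13.79 at 2 h and 10.72, 10.76, 10.71 and 10.66 at 24 h. The 24 h difference of -1.16 was not called (adjusted p = 0.095), but passed without 0 h replicate 4 (-1.62, adjusted p = 0.019) or 0 h replicate 3 (-1.43). In E773R the values were 11.88, 11.88, 10.62 and 11.03 at 0 h and 11.15, 11.10, 11.44 and 11.71 at 24 h, overlapping, with a difference of 0.00 (95% interval -0.96 to 0.96). At 2 h the GRalpha difference of 1.47 had adjusted p = 0.15, and without 0 h replicate 2, the highest 0 h array, it was 2.07 (0.0064).

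FOS, the prototype immediate early gene, and FOSB, its close relative, were called against 0 h in none of the 5 alleles at any time by limma (unadjusted p under 0.05 in 5 of 15 comparisons for FOS and 1 of 15 for FOSB). FOS in GRalpha read 10.29, 11.80, 8.73 and 8.76 at 0 h, 11.66, 11.05, 11.28 and 11.96 at 2 h, 11.34, 10.83, 8.9 and 8.83 at 4 h and 11.36, 11.23, 10.51 and 10.75 at 24 h. The 0 h and 4 h arrays each split into replicates 1 and 2, which were high, and 3 and 4, which were low, so that the 0 h range took in every array of 2 and 24 h except 2 h replicate 4. At 2 h the FOS differences, none called, were 1.59 in GRalpha (95% interval 0.65 to 2.54, adjusted p = 0.072), 1.51 in GRgamma (0.11), 1.12 in A477T (0.39) and 0.93 in E773R (1), and in 30iiB -0.54 (0.87). Without GRalpha 0 h replicate 2 the GRalpha value was 2.23 at 2 h (adjusted p = 0.0015) and 1.7 at 24 h (0.0063), both called, and without GRgamma 0 h replicate 1 the GRgamma value at 2 h was 1.91 (0.026). The 4 h differences lay between -1.19 in 30iiB and 0.63 in A477T, and the 30iiB fall was called without 4 h replicate 1, the highest of its group (-1.64, adjusted p = 0.042). Those at 24 h lay between -0.22 in GRgamma and 1.07 in GRalpha. FOS was thus the gene of the set whose 24 h difference lay above 0 in the most alleles, 4 of 5, none called.

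FOSB in GRalpha read 9.53, 11.59, 5.69 and 6.77 at 0 h, the widest group of the set, and 7.97, 8.07, 8.1 and 8.13 at 24 h. The lowest of these, 0 h replicate 3, was an array on which FOSB was not detected. In E773R FOSB read 8.38, 7.64, 7.53 and 6.99 at 0 h and 10.69, 8.29, 10.46 and 10.79 at 2 h, where replicate 2 alone lay within the 0 h range. The difference there was 2.42 (SE 0.69, adjusted p = 0.17), and without 2 h replicate 2 it was 3.01 (adjusted p = 0.037). At 24 h FOSB differences ran from -0.92 to 0.36.

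From 4 to 24 h, 12 of 45 pairs were called (7.74% over all probes), 11 lower and 1 higher, with 15 called when slide was a fixed block. Scaling arrays to 1 median left 8 and lost FOS and FOSL1 in 30iiB, JUN in GRalpha and EGR1 in GRgamma. Besides ARC in 5 alleles, the falls were FOSL1 in GRgamma (-1.73) and 30iiB (-1.34), JUN in GRalpha (-1.43), ATF3 in GRalpha (-1.68) and GRgamma (-2.02), and EGR1 in GRgamma (-1.79). FOS rose in 30iiB, from 10.35, 8.45, 8.4 and 8.73 at 4 h to 10.31, 10.26, 10.57 and 10.56 at 24 h. That rise of 1.44 (SE 0.47, adjusted p = 0.034) was lost without any 1 of the 8 arrays except 4 h replicate 1, with differences between 1.25 and 1.5. The FOSL1 fall in 30iiB was lost without 6 of its 8 arrays in turn (4 h replicates 1 and 4, and each 24 h replicate), from -1.39 to -0.99, that in GRgamma without 4 h replicate 3 (-1.44), and the ATF3 fall in GRalpha without 4 h replicate 1 (-1.33).

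The allele differences were tested directly, and limma called none. Of 108 differences between a variant's response and that of GRalpha 0 were called, 7 had an unadjusted p under 0.05, and 0.899% of all probe differences were called. Those with the smallest unadjusted p were EGR1 in 30iiB at 2 h (-2.29, 95% interval -3.65 to -0.93), FOS in 30iiB at 2 h (-2.13, -3.47 to -0.79) and JUN in GRgamma at 24 h, given above. For ARC the 2 h response of A477T minus that of GRalpha was -0.85, with a 95% interval of -1.83 to 0.13, and for E773R it was -0.85 (-1.83 to 0.12). For FOSL1 at 24 h the E773R response minus that of GRalpha was 1.26 (-0.04 to 2.57). These intervals hold differences of over 1 log2 unit, so the data do not show that the alleles act alike on these genes, and the falls called in 4 alleles and not in E773R were not shown to differ from E773R.

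Before hormone, 0 of 36 differences from GRalpha were called (1.11% over all probes) and 2 had an unadjusted p under 0.05. These were ARC in 30iiB (9.2 ± 0.27 against 10.11 ± 0.68, mean ± SD, n = 4 each, difference -0.91, limma adjusted p = 0.26) and EGR1 in 30iiB (12.89 ± 0.29 against 11.87 ± 1.41, difference 1.02, limma adjusted p = 0.45).

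**Figure D4:**
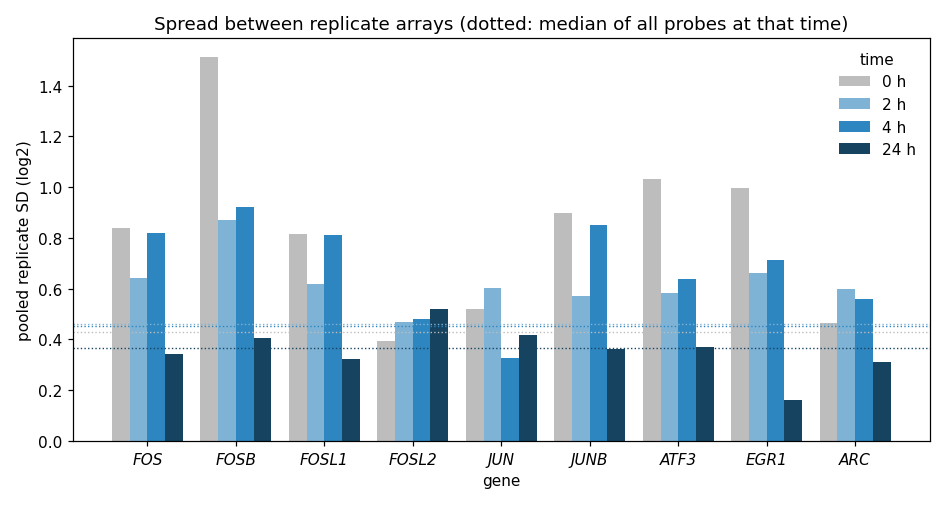
Pooled SD between the 4 replicate arrays of a group (vertical, log2), over 5 alleles, for 9 genes (horizontal) at 4 times; dotted lines give the median over all kept probes at each time. The 0 h bars of FOSB, ATF3 and EGR1 pass 0.9 and the 24 h bars of all 9 genes are at 0.52 or lower.

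The replicates of a group differed widely in the same genes before hormone, and little after 24 h. The pooled replicate SD at 0 h (15 degrees of freedom over 5 alleles) was 1.51 for FOSB, 1.03 for ATF3, 1.00 for EGR1, 0.90 for JUNB, 0.84 for FOS and 0.82 for FOSL1, where the median probe had 0.43. Those 6 lay between the 96.3rd and 99.9th percentile of all kept probes. ARC (0.47), JUN (0.52) and FOSL2 (0.39) lay between the 41st and 71.5th. At 24 h the SD was 0.16 for EGR1, at the 3.46th percentile, 0.32 for FOSL1, 0.34 for FOS, 0.36 for JUNB, 0.37 for ATF3 and 0.41 for FOSB, against 0.37 for the median probe. FOSL2 was the exception, with 0.52 at 24 h. Between them, at 4 h, FOSB had 0.92, JUNB 0.85 and FOS 0.82.

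**Figure D5:**
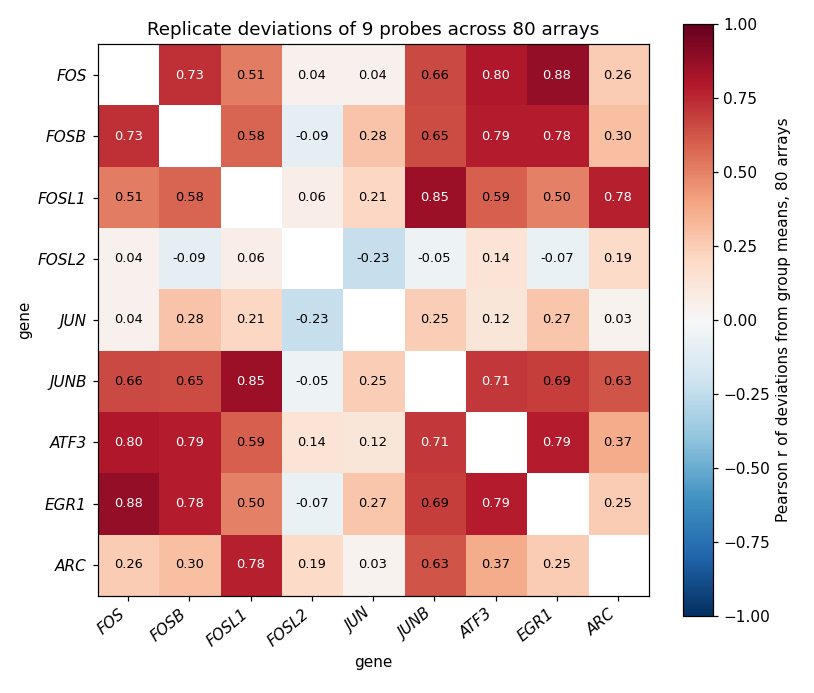
Pearson correlation of the deviations of arrays from their group means, for each pair of 9 genes, over 80 arrays of 20 groups; red is positive. FOS, FOSB, ATF3, EGR1 and JUNB have 0.65 to 0.88 with each other, FOSL1 has 0.85 with JUNB and 0.78 with ARC, and FOSL2 and JUN lie between -0.23 and 0.28 with all others.

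These deviations ran together from gene to gene. Over 80 arrays, the deviations from the group means of FOS and EGR1 had Pearson r = 0.88 and Spearman rho = 0.86 (permutation within groups, two-sided, p = 1e-05, the smallest that 100000 permutations can give, and 3e-05 after Benjamini-Hochberg adjustment over 36 pairs). EGR1 was the first of 15391 other probes in its likeness to FOS, and JUNB the first for FOSL1 (r = 0.85, rho = 0.84, the same p). ATF3 was the first for FOSB (r = 0.79, rho = 0.75). Without the 2 arrays farthest from the median of the first gene, r was 0.85 for FOS and EGR1, 0.83 for FOSL1 and JUNB and 0.76 for FOSB and ATF3. Of the 36 pairs 18 passed an adjusted p under 0.05, and no pair with JUN or FOSL2 did. The share of all probe pairs that would pass was not computed, so the count of 18 has no background beside it. A pair could pass without being among the closest: ARC ranked 674 of 15391 probes in likeness to ATF3 (r = 0.37). The arrays of a pair share labelling, slide and depth, and with slide means removed r was 0.89 for FOS and EGR1 and 0.87 for FOSL1 and JUNB. Some other pairs, with and without JUN or FOSL2, shifted more. Without slide means r went from 0.21 to 0.42 for FOSL1 and JUN and from -0.09 to 0.32 for FOSB and FOSL2. For EGR1 and ARC it went from 0.25 to 0.41, and for FOSB and JUN from 0.28 to 0.33. Among pairs with JUN or FOSL2, only FOSL2 and ARC went down, from 0.19 to 0.13. The permutation test was not run on values without slide means.

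The genes around the set were taken from 4 lists, counted with 1 probe a gene. These lists were chosen with earlier results of these data known. Their counts beside the shares of all genes are therefore a description. Of 24 measured AP-1 target genes, 7 fell and 2 rose at 4 h in GRalpha (1.88% and 2.79% of all genes). At 24 h 15 fell in 30iiB (8.16% of all genes), 13 in GRalpha (9.01%), 13 in A477T (4.47%), 12 in GRgamma (7.46%) and 9 in E773R (2.54%). The median of the list at 24 h ran from -1.34 in 30iiB to -0.78 in E773R, beside medians of all genes between -0.02 and 0.02. HBEGF, a growth factor that binds the EGF receptor, fell at 4 h in each allele (log2 -3.28 in 30iiB, -3.06 in GRgamma, -2.75 in GRalpha, -1.88 in A477T and -1.33 in E773R). LIF, a cytokine of the interleukin 6 family, fell at 4 h in 30iiB (-4.29, detected on 2 of 4 arrays at 4 h), GRalpha (-3.77, detected on 3), A477T (-2.87, also on 3) and GRgamma (-2.66, on 4), and its E773R value was -0.87 (adjusted p = 0.33). At 24 h the differences of PLAU, the urokinase protease gene, ran from -5.65 in 30iiB to -2.64 in E773R, and those of CCL2, a monocyte chemokine gene, from -6.76 in A477T to -4.99 in 30iiB, all called. AP-1 targets thus had calls in E773R at 24 h, where the genes of the set had 0, and the difference between the lists was not tested. Of 20 other immediate early genes, 3 rose and 1 fell there (2.98% and 2.54% of all genes).

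Of 20 other immediate early genes measured, 2 rose and 4 fell at 4 h in GRalpha, 2 rose and 5 fell in A477T, 1 rose and 3 fell in GRgamma, 6 fell in 30iiB and 1 rose in E773R. The shares of all genes that fell at 4 h were 1.88%, 1.39%, 1.32%, 1.97% and 0.383%, and those that rose 2.79%, 1.89%, 2.87%, 2.34% and 0.741%, in the same order. ZFP36, whose protein destabilises cytokine mRNAs, rose at 4 h by 2.02 in GRalpha, 1.91 in GRgamma, 1.32 in A477T and 1.43 in E773R. HES1, a Notch pathway repressor, fell at 4 h in GRalpha (-1.57), A477T (-2.63) and 30iiB (-2.69). IER2, itself an immediate early gene, fell in GRgamma (-1.47), A477T (-1.39) and 30iiB (-1.8). CCN1, a matrix protein gene driven by YAP and serum response factor, fell in GRalpha (-1.48), A477T (-1.31) and 30iiB (-1.91). In E773R the 4 h values were -0.3 for HES1, -0.39 for IER2 and -0.62 for CCN1, not called. Also not called at 4 h were HES1 (-1.12) and CCN1 (-0.48) in GRgamma, IER2 in GRalpha (-1.13) and ZFP36 in 30iiB (1.16).

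The calls at 4 h among other basic leucine zipper partners and the upstream kinases are given beside the shares of all genes. Of 16 measured partners, 1 rose and 2 fell at that time, all in 30iiB (2.34% and 1.97% of all genes). CEBPD, a C/EBP factor, rose in 30iiB by 1.32 at 4 h and 2.69 at 24 h, and at 24 h also in GRalpha (2.2), GRgamma (1.41) and E773R (1.31), while the A477T difference of 0.7 was not called. MAF fell in 30iiB at 4 h (-1.26). BATF2 fell there as well, but was detected on 1 of the 4 arrays at 4 h. Of 16 measured upstream kinases and factors, ELK1, a cofactor of serum response factor, was the one called at 4 h. It was higher by 0.83 in GRalpha, 0.7 in GRgamma and 0.97 in 30iiB, where 2.79%, 2.87% and 2.34% of all genes rose. The others were not called in any allele at that time.

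By Pearson correlation of the 20 group means, the 2 genes most like each member were taken from all others (n = 20 groups, which share normalisation and the 0 h controls, and no p). FOSL1 was closest to EPHA2 (0.97) and CDC42EP1 (0.95). JUNB was closest to NUAK2 (0.89) and NR4A1 (0.89), and EGR1 to DUSP5 (0.89) and RCAN1 (0.88). ARC was closest to FOXA2 (0.89) and RRAD (0.89), ATF3 to TRIM16 (0.89) and ABCG1 (0.87), and FOSL2 to MTUS1 (0.88) and TBC1D4 (0.87). JUN was closest to STARD5 (0.83) and UCK2 (0.83). FOSB (CD69 at 0.78 and IRF1 at 0.73) and FOS (CDC25C at 0.74 and PRORP at 0.72) had the least close neighbours.

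Slides held arrays of several groups, so called differences could be read within a slide. Of 49 called pairs 42 had arrays of both groups on at least 1 slide. In 72 of 73 such differences the sign was that of the call, and the exception was JUNB at 24 h in GRalpha on 1 of 3 slides. These are the arrays that made the calls, so their signs are a description and add no support.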

How the data were processed

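Single-colour bead arrays were read for 80 RNA samples in 20 groups of 4. The deposited signal table gives, for 25204 probes, the intensity on every array without background subtraction or normalisation, per the file headers, each followed by its detection p-value, per the file headers. The deposited series matrix holds 21241 probes on a log2 scale, with column medians of 7.89 to 7.97; each of its 80 columns correlated best with its own array (r of at least 0.938). The sources used here do not give the scanner software or how that matrix was normalised. No signal column lacked a sample (0).

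Probes were named from the platform annotation: 19291 had 1 gene symbol, and the other 5913 did not have exactly 1 and were left out. The neqc function of limma (version 3.58.1, R 4.3.3) corrected the deposited intensities by normexp with the detection p-values (offset 16), normalised quantiles and took log2. Tables were read with the data.table package (1.17.8). Probes detected at p under 0.05 on at least 4 arrays were kept (15392). All 20 group means were fitted in 1 limma model, with 60 residual and 5.65 prior degrees of freedom, and 36 comparisons were taken from it, tested two-sided with Benjamini-Hochberg adjustment. The script was tested on simulated data. Permutations, promoter searches and figures used Python 3.11.15 with scipy 1.17.1, numpy 2.4.6, pandas 2.3.3 and matplotlib 3.10.9.

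Genes named beyond the set were, by rule, the 2 genes closest to each member in the 20 group means, and up to 4 genes of each list, those called at 4 h in the most alleles and then by the mean size of the 4 h change. The members and lists were chosen with earlier results of these data known. Alternatives were slide as a fixed or random block, a replicate block, fits on the groups compared alone, other background, scaling, filter and probe choices, the series matrix, and each of 80 arrays left out in turn.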

Additional observations from a re-analysis of the deposited data

Results flagged for a closer look

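In 14 of 180 gene and group sets of 4 arrays, 1 array stood apart from the other 3 by a gap above Dixon's 95% critical value for the gap over the range. Chance gives about 1 in 20 sets, and the sets of 1 array are not independent. For FOS the array read 10.27 in GRgamma 24 h replicate 2, where the others lay between 9.79 and 9.83, and 10.35 in 30iiB 4 h replicate 1, where the others lay between 8.40 and 8.73. For FOSB the array read 8.29 in E773R 2 h replicate 2, where the others lay between 10.46 and 10.79. For FOSL1 the array read 9.32 in GRgamma 2 h replicate 1, where the others lay between 10.51 and 10.68, and 8.89 in A477T 2 h replicate 2, where the others lay between 9.96 and 10.14. For FOSL2 the array read 6.03 in 30iiB 24 h replicate 1, where the others lay between 7.33 and 7.53. For JUN the array read 12.50 in GRalpha 4 h replicate 2, where the others lay between 12.28 and 12.30. For ATF3 the array read 12.25 in GRgamma 0 h replicate 1, where the others lay between 9.71 and 9.90, 9.45 in GRgamma 24 h replicate 1, where the others lay between 8.5 and 8.66, 10.36 in A477T 24 h replicate 4, where the others lay between 9.51 and 9.65, and 10.10 in 30iiB 4 h replicate 1, where the others lay between 9.41 and 9.45. For ARC the array read 9.11 in GRalpha 0 h replicate 4, where the others lay between 10.36 and 10.60, 11.92 in GRalpha 4 h replicate 1, where the others lay between 11.30 and 11.39, and 11.15 in GRgamma 0 h replicate 1, where the others lay between 9.90 and 9.96. GRgamma 0 h replicate 1 passed that critical value in ATF3 and ARC, and the values without it are given with those genes. It was also the highest array of its group in every other gene measured. GRalpha 0 h replicate 4 passed it, on the low side, in ARC. That array was also the lowest of its group in FOSL1, FOSL2, JUN, JUNB, ATF3 and EGR1, but not in FOS or FOSB. Why these arrays stood apart was not tested.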

How the results depend on the processing

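Leaving out each of the 80 arrays in turn gave 4 to 8 calls at 2 h (5 in the report), 9 to 12 at 4 h (11), 18 to 23 at 24 h (21), 10 to 13 between 4 and 24 h (12), 0 to 1 among differences from the GRalpha response (0) and 0 at 0 h. The series matrix values gave 13 at 2 h, 17 at 4 h, 28 at 24 h, 19 between 4 and 24 h and 2 at 0 h. Arrays scaled to the same median gave 7 at 2 h, 11 at 4 h, 18 at 24 h and 8 between 4 and 24 h. Fits on the groups compared alone, which have fewer arrays, gave 4 at 2 h, 7 at 4 h, 23 at 24 h and 15 between 4 and 24 h. The replicate block gave 9 at 2 h, 12 at 4 h, 23 at 24 h and 14 between 4 and 24 h. Deviations from the group means, over all kept probes, were correlated between arrays of the same replicate number. In 1 of 24 comparisons, GRalpha at 24 h against 4 h, every r was above 0.1, and the replicate block changed no member call there. In the other comparisons not every r passed 0.1, which does not show that those replicates were unpaired. No call changed direction under any of these settings. Of 49 calls 27 held in every setting and 22 were lost in at least 1; of 275 differences not called 36 were called in at least 1. The cause of these shifts was not tested. FOSL2 was below detection on 2 arrays and FOSB on 1, so their values there are near background.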
